A study of Homo sapiens with 6 samples.

Results

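The genes described here set the activity of the kinases that open the cell cycle. They are the D-type cyclins CCND1, CCND2 and CCND3, the kinases CDK4 and CDK6, the CIP/KIP inhibitors CDKN1A, CDKN1B and CDKN1C, and the INK4 inhibitors CDKN2A and CDKN2B. They were taken by gene symbol, giving 10 members among the 19899 genes of the table. All 10 members were found, and all 10 passed the filter on low counts, which left 14246 genes to test.

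A D-type cyclin binds CDK4 or CDK6 in G1, and the active pair phosphorylates the retinoblastoma protein RB1, which releases E2F factors to switch on genes of DNA synthesis. INK4 proteins bind the kinase and keep the cyclin off. CIP/KIP proteins bind cyclin-kinase pairs, block CDK2 above all, and can also help cyclin D assemble with its kinase. Earlier work linked loss of BRG1 to a low level of cyclin D1 in SCCOHT, the hypercalcemic small cell carcinoma that arises in the ovary of young women.

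RNA was sequenced from parental COV434 cells, an ovarian line that the study counts as SCCOHT, after transient transfection of either pCDNA3-neo (Control, n = 3) or PBJ5-BRG1 (BRG1, n = 3). BRG1 is the SWI/SNF ATPase encoded by SMARCA4. Both groups also received pBABE-puro, and both were kept for 3 days in 2 to 3 µg/ml of puromycin, begun 24 hours after transfection, so every library comes from a selected pool of cells and not from a clone. The labels number the biological replicates of each group from 1 to 3, and BRG1 was compared with Control within these numbers. Libraries held between 29699741 (BRG1 replicate 3) and 63613710 (BRG1 replicate 1) estimated counts. In RNA from a whole culture, a change in the share of cells that express a gene and a change per cell cannot be told apart.

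SMARCA4 was read first, as the transfected gene. Its level, in CPM (the count scaled to a common library size with TMM factors), was 31.6, 36.7 and 33.3 in Control and 2316, 1714 and 1729 in BRG1 replicates 1 to 3, plasmid transcripts included. This was a log2 fold change of 5.81 (standard error 0.16, edgeR quasi-likelihood test with the replicate number as a block, adjusted p = 1.1e-06). The other SWI/SNF ATPase gene, SMARCA2, stayed under 0.8 CPM in every library, at 0.0820 to 0.774 CPM. Of the granulosa cell markers FOXL2, AMH, INHA, FSHR and CYP19A1, FOXL2 and FSHR held 3 counts or fewer in each library, and CYP19A1 was called higher. The summed level of these 5 markers was 6.40 to 10.2 CPM in Control and 13.8 to 19.6 CPM in BRG1 libraries. CYP19A1 had 0.348 to 0.689 CPM in Control and 5.52 to 9.69 CPM in BRG1 libraries, while AMH and INHA were not called. Among markers of other cell types, the 3 endothelial ones were PECAM1, VWF and CDH5. They summed to 0.562 to 1.99 CPM in Control and 72.6 to 83.9 CPM in BRG1 libraries. VWF alone held 69.9 to 79.5 CPM in BRG1 libraries. VWF and CDH5 were called higher. PECAM1 was not called, at 0 to 0.514 CPM in Control and 0.155 to 0.821 CPM in BRG1 libraries. Of the leukocyte markers, PTPRC had 7.39 to 14.5 CPM in Control and 7.67 to 15.9 CPM in BRG1 libraries, CD3E held 3 counts or fewer throughout, and LYZ was called higher. The 5 fibroblast markers summed to 111 to 184 CPM in Control and 84.9 to 197 CPM in BRG1 libraries, with none at the floor. COL3A1 made up most of the sum, at 87.7 to 163 and 67.7 to 176 CPM. PDGFRA was called higher, at 0.0656 to 0.214 CPM in Control and 0.886 to 2.33 CPM in BRG1 libraries. COL1A1 (log2 fold change 0.93), COL3A1 (-0.10), DCN (-0.34) and LUM (-0.45) were not called. The part of these markers in the results below was not tested.

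Of the 10 members, CCND1, CCND2 and CDKN2B were called higher with BRG1 and 0 were called lower at an adjusted p under 0.05. Of all genes tested, 13.7% passed in the higher direction and 5.68% in the lower. Before adjustment 4 members had p under 0.05 and a higher level and 2 a lower one, beside 18.6% and 15.6% of all genes. The groups did not overlap for the same 3 genes, beside 15.9% of all genes with every BRG1 library above every Control library. Without the replicate block, edgeR called CCND1 and CDKN2B but not CCND2, with 0 members called lower, beside 9.57% of all genes called higher and 1.02% called lower. DESeq2 called the same 3 members higher with the block and without it, beside 13.4% and 11.0% of all genes. It called 2 members lower with the block (6.62% of all genes) and 0 without it (1.84%), while limma-voom with the block called 1 lower (7.08%) and edgeR with no low-count filter called 2 lower (5.42%, with 11.7% higher). With limma-voom 14.6% of all genes were called higher. The median log2 fold change was 0.02 over the members and -0.04 over all genes tested.

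**Figure D1:**
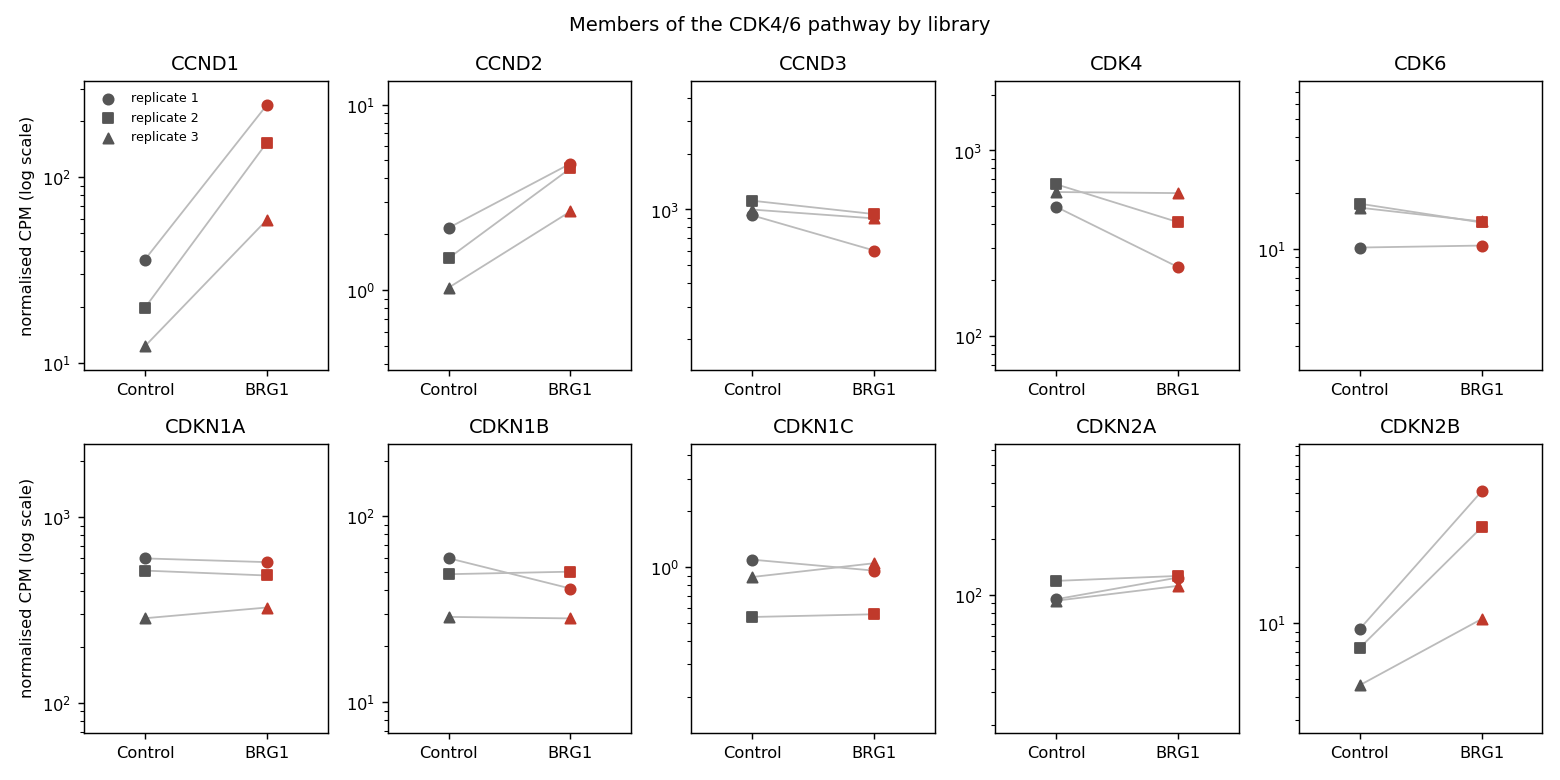
Normalised CPM of each member in Control (grey) and BRG1 (red) libraries, on log axes that span the same ratio in every panel, with marker shapes for replicate numbers and lines joining libraries of the same number. CCND1, CCND2 and CDKN2B rose in each of the 3 numbers with no overlap between groups, while the lines of CDKN1A, CDKN1B and CDKN1C cross or run nearly level.

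The cyclins were examined first. CCND1 encodes cyclin D1, the partner of CDK4 and CDK6 that is most often raised in tumours, and lies on the plus strand of chromosome 11 (69641156 to 69654474, GRCh38, GENCODE release 44). Its level was 36.1, 19.9 and 12.3 CPM in Control replicates 1 to 3 and 245, 153 and 59.0 CPM in BRG1 replicates 1 to 3. Every BRG1 library lay above every Control library, and in both groups replicate 1 was the highest and replicate 3 the lowest. Within numbers the folds were 6.78, 7.72 and 4.78. The fitted log2 fold change was 2.66 (standard error 0.14), a fold of 6.32 (95% interval 5.02 to 7.96, edgeR adjusted p = 2.0e-05), and without the block the adjusted p was 0.0172. That placed CCND1 at 805 of 14246 genes by log2 fold change. The means were 22.8 ± 12.1 and 152 ± 92.8 CPM (SD, n = 3). Without the block the call was lost when Control replicate 2, Control replicate 3 or BRG1 replicate 2 was left out (edgeR adjusted p = 0.0911, 0.0610 and 0.0536). Exons of LTO1 on the opposite strand cover 10.4% of the exonic bases of CCND1, and these libraries do not keep strand. The part of LTO1 reads in the CCND1 value was not tested.

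CCND2, on chromosome 12 (4269771 to 4305353, plus strand), encodes cyclin D2, which serves the same kinases and is the main D-type cyclin of normal granulosa cells. Here it was scarce. Control libraries 1 to 3 held 2.17, 1.49 and 1.03 CPM and BRG1 libraries 4.81, 4.54 and 2.66 CPM. The groups did not overlap, although the lowest BRG1 value (81 counts) and the highest Control value (81 counts) rest on few reads. On the log2 scale the change was 1.37 (standard error 0.23), a fold of 2.58 (95% interval 1.78 to 3.73, edgeR adjusted p = 0.00566). The call was lost in edgeR without the replicate block (adjusted p = 0.0616) and without replicate 2 (edgeR adjusted p = 0.0640), while DESeq2 made it without the block (adjusted p = 0.00389). Exons of other genes on the same strand cover 12.5% of the exonic bases of CCND2.

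CCND3, on chromosome 6 (41934934 to 42050357, minus strand), encodes cyclin D3 and was by far the most abundant of the family. Control libraries held 929, 1114 and 998 CPM, and BRG1 libraries held 601, 944 and 895 CPM. The groups overlapped, since BRG1 replicate 2 exceeded Control replicate 1, but each BRG1 library was below the Control library of its number, with folds of 0.647, 0.848 and 0.897. CCND3 was not called (log2 fold change -0.34, standard error 0.11, edgeR adjusted p = 0.0726), beside 30.2% of all genes that were lower within all 3 numbers. DESeq2 with the block called it lower (adjusted p = 0.0212), whereas without the block DESeq2 gave 0.447.

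To set the cyclins against each other, CPM was divided by the length in kilobases of the gene's canonical transcript, which is 4.24 for CCND1, 6.49 for CCND2 and 2.03 for CCND3. On this per-length scale the Control levels were 500 ± 46.2 for CCND3, 5.37 ± 2.87 for CCND1 and 0.241 ± 0.0880 for CCND2 (SD, n = 3), an order without overlap between neighbours. With BRG1 they were 402 ± 91.6, 35.9 ± 21.9 and 0.616 ± 0.180 (SD, n = 3), in the same order. CCND1 therefore made up 1.82%, 0.845% and 0.587% of D-type cyclin transcripts per length in Control replicates 1 to 3, and 16.3%, 7.20% and 3.05% in BRG1 replicates 1 to 3. CCND3 made up 83.5% or more in each library. The summed per-length level of the family was 506 ± 44.7 in Control and 438 ± 75.6 in BRG1 libraries (SD, n = 3), with folds within numbers of 0.760, 0.907 and 0.920, so the sum did not rise in any number. The length is that of 1 annotated transcript per gene, so the shares carry the error of that choice.

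**Figure D2:**
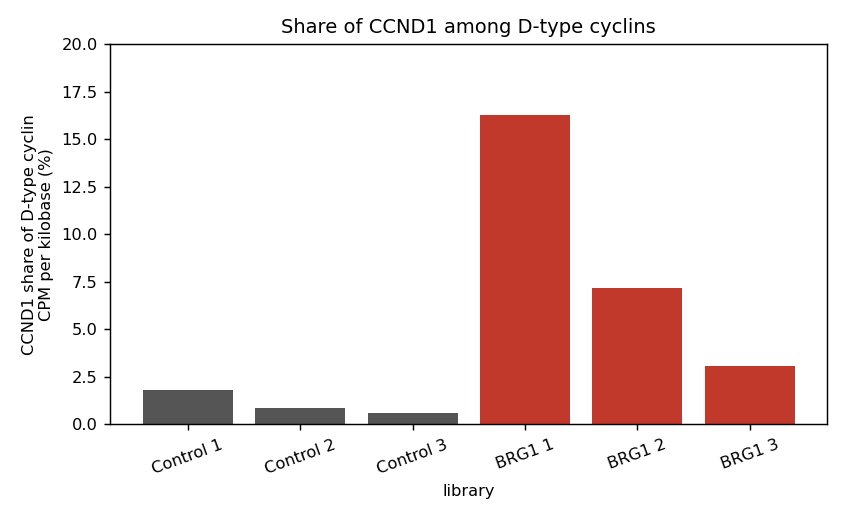
Share of CCND1 in the summed CPM per kilobase of CCND1, CCND2 and CCND3 in each library, as a percentage on an axis from 0, with Control bars in grey and BRG1 bars in red. The 3 Control libraries lie between 0.587% and 1.82% and the 3 BRG1 libraries between 3.05% and 16.3%.

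Whether the cyclins changed unequally was tested with ratios taken within each library, which do not depend on library size. The log2 ratio of CCND1 to CCND3 was higher with BRG1 by 3.00 ± 0.51 (SD of 3 within-number differences), that of CCND1 to CCND2 by 1.28 ± 0.36 and that of CCND2 to CCND3 by 1.71 ± 0.17. Each difference was positive in 3 of 3 numbers. The two-sided exact sign-flip permutation test gave p = 0.25 for each of the 3 pairs, also adjusted over them, which is the smallest p that 3 pairs allow, so this test cannot reach 0.05 here.

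Genes whose profile over the 6 libraries was nearest to that of CCND1 were found by the root mean square difference of centred log2(CPM + 0.5) values, over 14245 other genes. Among the nearest were FOXO1 (difference 0.23) and PLEKHG4 (0.30). FOXO1, a forkhead transcription factor, had 4.20, 2.60 and 2.17 CPM in Control and 31.8, 24.97 and 9.06 CPM in BRG1 replicates 1 to 3, with the same ranking of replicate numbers in both groups as CCND1. This is a description over libraries that share the group difference, and carries no test.

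Neither kinase was called. CDK4, the catalytic partner of the D-type cyclins, lies on chromosome 12 (57747727 to 57756013, minus strand). Control libraries 1 to 3 held 497, 658 and 597 CPM and BRG1 libraries 236, 412 and 590 CPM. Libraries 1 and 2 of BRG1 were below every Control library, whereas BRG1 replicate 3 was level with its Control partner. The folds within numbers were 0.474, 0.625 and 0.987. Over the 3 numbers the log2 fold change was -0.59 (standard error 0.18, 95% interval -1.02 to -0.16, edgeR adjusted p = 0.0632), beside 5.68% of all genes called lower. CDK4 was called lower by DESeq2 with the block (adjusted p = 0.00535), by limma-voom with the block (adjusted p = 0.0440), by edgeR with no low-count filter (adjusted p = 0.0355) and by edgeR without replicate 3, where the log2 fold change was -0.83 (adjusted p = 6.4e-04). Without the block the edgeR adjusted p was 0.414. Exons of TSPAN31, which runs on the opposite strand, cover 44.2% of the exonic bases of CDK4, and these libraries do not keep strand. TSPAN31 itself was called lower (log2 fold change -0.40, edgeR adjusted p = 0.0222). The part of TSPAN31 reads in the CDK4 value was not tested.

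CDK6, on chromosome 7 (92604921 to 92836573, minus strand), the second cyclin D kinase, was far scarcer, at 10.2 to 17.5 CPM in Control and 10.4 to 14.02 CPM in BRG1 libraries, and the groups overlapped. Its log2 fold change was -0.18 (95% interval -0.49 to 0.12, edgeR adjusted p = 0.367), so a fold below 0.711 or above 1.09 lies outside the interval. Without the block the log2 interval widened to -0.78 to 0.36. Per kilobase of canonical transcript, CDK4 stood at 313 ± 43.5 and CDK6 at 1.27 ± 0.344 in Control, and at 221 ± 94.8 and 1.09 ± 0.175 in BRG1 libraries (SD, n = 3). In both groups CDK4 was thus the main cyclin D kinase at the level of RNA, with no overlap between the kinases.

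The start region of CDK4 is shown because the gene's call turned on the settings and because it alone of the windows searched held E-boxes. RefSeq start regions were at hand for CCND3, CDK4, CDK6, CDKN1A, CDKN1B, CDKN2A and CDKN2B (7 members with 11 windows, GRCh38.p14), and the 250 bases before each start were searched on both strands for TGANTCA (AP-1), CACGTG (E-box), GGGCGG (GC box), and TTTCGCGC or TTTGGCGC (E2F). The E-box was found in 1 of the 11 windows, that of CDK4, while 6.34% of 35116 windows of the same length held 1 or more. The CDK4 window held 3 copies, whose first bases lie at -216, -196 and -101 from the start. The share of all windows with 3 copies was not counted. The window is chr12:57752311-57752560 on the minus strand, written 5′ to 3′ with the E-boxes in capitals; none overlaps another motif searched.
CDK4: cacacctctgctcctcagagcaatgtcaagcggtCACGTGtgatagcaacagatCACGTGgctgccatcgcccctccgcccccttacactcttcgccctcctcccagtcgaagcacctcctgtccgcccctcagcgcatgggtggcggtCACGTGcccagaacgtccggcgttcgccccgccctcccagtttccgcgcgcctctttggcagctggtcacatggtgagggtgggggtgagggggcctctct

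GC boxes were found in 8 of the 11 windows, and in 42.6% of all windows. No member window held the AP-1 letters (6.57% of all windows did) or the E2F letters (0.968% of all windows did). A match describes letters and no match says only that they are not in the window.

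The CIP/KIP inhibitors showed no difference larger than the spread between replicates. CDKN1A encodes p21, the inhibitor best known as a target of p53, on chromosome 6 (36676460 to 36687337, plus strand). It was the most abundant inhibitor per length. Its level was 599, 515 and 286 CPM in Control replicates 1 to 3 and 572, 485 and 326 CPM in BRG1 replicates 1 to 3. Both groups spanned the same range, with replicate 3 lowest in each. CDKN1A had a log2 fold change of 0.01 (95% interval -0.20 to 0.23, edgeR adjusted p = 0.939), so that a fold below 0.870 or above 1.17 lies outside the interval. Without the block the value was -0.02 and the interval widened to -0.70 to 0.67.

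CDKN1B, which encodes p27 and lies on chromosome 12 (12685498 to 12722369, plus strand), had 28.8 to 59.6 CPM in Control and 28.3 to 50.4 CPM in BRG1 libraries (log2 fold change -0.18, 95% interval -0.48 to 0.12, edgeR adjusted p = 0.377). Its interval without the block ran from -0.88 to 0.49. CDKN1C, the imprinted inhibitor p57 on chromosome 11 (2883213 to 2885775, minus strand), was near the lower end of detection with 21 to 62 counts per library, or 0.540 to 1.098 CPM. Its log2 fold change was 0.03 (edgeR adjusted p = 0.961). The interval of the fold ran from 0.599 to 1.74, so changes inside that range remain compatible with the data. Without the block the log2 interval of CDKN1C ran from -0.95 to 0.98.

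Of the INK4 inhibitors, CDKN2B was called and CDKN2A was not. CDKN2B encodes p15, an inhibitor of CDK4 and CDK6 known for its rise under TGF-beta, and lies on chromosome 9 (22002903 to 22009305, minus strand), next to CDKN2A. Control libraries 1 to 3 held 9.32, 7.38 and 4.64 CPM and BRG1 libraries held 51.2, 32.8 and 10.5 CPM. Every BRG1 library lay above every Control library, with BRG1 replicate 3 only just above the highest Control value. Within numbers the folds were 5.50, 4.45 and 2.27. Its fitted log2 fold change was 1.96 (standard error 0.24), a fold of 3.88 (95% interval 2.64 to 5.70, edgeR adjusted p = 0.00121), and without the block the adjusted p was 0.0413. In the unblocked fit the call was kept only when BRG1 replicate 3 was the library left out, and leaving out any of the other 5 gave adjusted p-values of 0.0882 to 0.143.

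The start region of CDKN2B is shown as that of the called member with a RefSeq window. It spans chr9:22009306-22009555 on the minus strand, 250 bases before the start, with its 2 GC boxes in capitals (one is written as its reverse complement, CCGCCC), 5′ to 3′.
CDKN2B: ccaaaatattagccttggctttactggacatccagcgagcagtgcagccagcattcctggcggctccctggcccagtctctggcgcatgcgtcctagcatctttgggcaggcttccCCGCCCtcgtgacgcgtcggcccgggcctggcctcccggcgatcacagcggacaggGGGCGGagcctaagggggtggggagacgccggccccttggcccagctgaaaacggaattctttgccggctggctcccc

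CDKN2A, on chromosome 9 (21967752 to 21995301, minus strand), gives rise from 2 starts to p16, which blocks CDK4 and CDK6, and to p14ARF, which acts on MDM2; a value per gene symbol sums both. Its level was 94.8, 119 and 93.1 CPM in Control and 124, 127 and 112 CPM in BRG1 replicates 1 to 3. Each BRG1 library exceeded the Control library of its number, with folds of 1.31, 1.06 and 1.20, but the groups overlapped because Control replicate 2 exceeded BRG1 replicate 3. CDKN2A was not called (log2 fold change 0.25, standard error 0.09, edgeR adjusted p = 0.0979), beside 26.3% of all genes that were higher within all 3 numbers. Exons of CDKN2B-AS1 on the opposite strand cover 15.3% of its exonic bases. Only 1.75% of the 31-base words of CDKN2B transcripts occur in CDKN2A transcripts, and 1.74% the other way, so these neighbours were separable in the counting for most of their length.

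Per kilobase the inhibitors ranked CDKN1A, CDKN2A, CDKN1B, CDKN2B and CDKN1C in Control, with means of 220.5 ± 76.7, 105 ± 14.8, 19.0 ± 6.48, 1.85 ± 0.610 and 0.474 ± 0.159 (SD, n = 3), and no neighbours in this order overlapped. In BRG1 libraries CDKN2B rose to 8.18 ± 5.29 but stayed under CDKN1B at 16.5 ± 4.61 in each library. The genes nearest to CDKN2B in profile were RFTN1 (root mean square difference 0.19), FNDC1 (0.21) and GABARAPL1 (0.21), an autophagy gene with 5.09, 3.73 and 2.72 CPM in Control and 24.4, 14.98 and 7.39 CPM in BRG1 replicates 1 to 3.

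**Figure D3:**
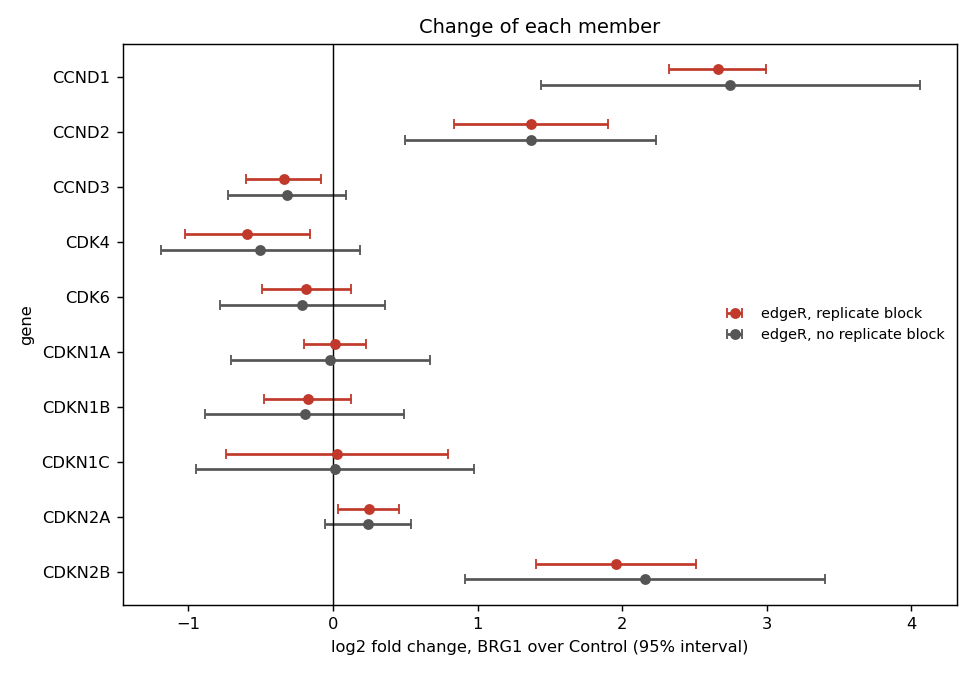
Log2 fold change of each member, BRG1 over Control, with 95% intervals from edgeR with the replicate number as a block (red) and without it (grey). Intervals of CCND1, CCND2 and CDKN2B lie above 0 in both fits, and the block narrows every interval, as for CDKN1A, from -0.70 to 0.67 down to -0.20 to 0.23.

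The genes around the pathway were then counted in 6 lists. Of the 16 genes of the RB and E2F core, 14 had a log2 fold change below 0, beside 55.7% of all genes tested, and 2 were called lower and 0 higher. These were RBL1, which encodes the RB relative p107 (log2 fold change -0.53, edgeR adjusted p = 0.0410), and TFDP2, a partner of E2F proteins (-0.37, edgeR adjusted p = 0.0360). RB1 itself had 34.1, 32.7 and 42.9 CPM in Control and 43.1, 34.1 and 44.6 CPM in BRG1 libraries, and was not called (log2 fold change 0.15, edgeR adjusted p = 0.314). Over the list the median change was -0.18 on the log2 scale. That median was -0.09 without replicate 1, and -0.07 without BRG1 replicate 1 in the unblocked fit.

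Of 20 E2F target genes of S phase, 20 had a log2 fold change below 0 and the median was -0.46. Without replicate 1 these values were 19 and -0.26, and in the unblocked fit they were 16 and -0.11 without BRG1 replicate 1 and 19 and -0.26 without Control replicate 2. At an unadjusted p under 0.05, 15 were lower, beside 15.6% of all genes, but this count was 7 without replicate 1, 9 without replicate 2 and 1 without the replicate block. After adjustment 4 were called lower, beside 5.68% of all genes, and 0 higher. They were CCNA2, which encodes cyclin A2 (log2 fold change -0.64, edgeR adjusted p = 0.0309), the ribonucleotide reductase subunit gene RRM1 (-0.47, adjusted p = 0.0188), and the replication helicase genes MCM5 and MCM6 (-0.47 and -0.37, adjusted p = 0.0335 and 0.0357). CCNA2 had 21.6, 31.1 and 38.3 CPM in Control and 10.1, 21.0 and 31.8 CPM in BRG1 replicates 1 to 3, so the groups overlapped and the fall showed within numbers, with folds of 0.470, 0.673 and 0.830. The count was 17 without replicate 3, 1 without replicate 1 or replicate 2, and 0 without the block.

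The DREAM complex represses cell-cycle genes in resting cells, but the list of 8 genes around it and MuvB also holds MYBL2, FOXM1 and DYRK1A. Its median therefore does not describe the repressor alone. On this mixed list 1 gene was called lower (LIN54, log2 fold change -0.42, edgeR adjusted p = 0.0476) and 0 higher, with a median of -0.28 that was -0.17 without replicate 1. In the unblocked fit it was -0.09 without Control replicate 2 and -0.07 without BRG1 replicate 1. Of 8 ubiquitin ligase subunits that act on D-type cyclins or p27, CKS1B, the cofactor for p27 removal, was the 1 called lower and 0 were called higher. Its level was 107, 161 and 110 CPM in Control and 41.0, 86.4 and 103 CPM in BRG1 replicates 1 to 3 (log2 fold change -0.79, edgeR adjusted p = 0.0434), with no overlap although BRG1 replicate 3 lay just under the lowest Control value, and the list's median was -0.08. Of 12 other regulators of cell-cycle kinases, CCNB2 (cyclin B2) was called lower (-0.48, edgeR adjusted p = 0.0402) and WEE1, an inhibitory kinase of CDK1, was called higher (0.40, edgeR adjusted p = 0.0451), with a median of -0.32. In the unblocked fit this median was -0.18 without Control replicate 2 and -0.08 without BRG1 replicate 1. The counts of 1 in these 3 lists stand beside 5.68% of all genes called lower and 13.7% called higher. The remaining INK4 genes CDKN2C and CDKN2D are on this list and had log2 fold changes of -0.49 and -0.36 without a call (edgeR adjusted p = 0.0559 and 0.150). None of the calls in the lists of this paragraph and the preceding 2 was made without the replicate block (0 of 10 genes).

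Of 22 p53 target genes, 4 were called higher and 4 lower, beside 13.7% and 5.68% of all genes. The share called higher was near that of all genes, and the share called lower was above it in this fit. A log2 fold change below 0 was seen for 15 of the 22, beside 55.7% of all genes tested. The median log2 fold change was -0.15, but in the unblocked fit it was 0.03, with 12 of 22 genes above 0, without BRG1 replicate 3, and -0.01 without Control replicate 1. The higher genes were the death receptor gene FAS (log2 fold change 1.38, edgeR adjusted p = 0.00130), the stress cytokine gene GDF15 (0.87, adjusted p = 0.00435), PHLDA3 (0.71, adjusted p = 0.00220) and the phosphatase gene PPM1D (0.57, adjusted p = 0.00549). FAS rose from 11.1, 10.3 and 11.2 CPM to 36.8, 29.1 and 20.9 CPM in replicates 1 to 3. The lower genes, named after their values were seen, were TP53I3, SESN1, BBC3 and DDB2, at -0.56, -0.42, -0.38 and -0.32 (edgeR adjusted p = 0.0287, 0.0185, 0.0227 and 0.0469). MDM2, the feedback ligase of p53, was not called (log2 fold change -0.19, edgeR adjusted p = 0.186), nor was CDKN1A, given above. Without the block FAS, GDF15 and PHLDA3 were called and 0 of the 22 were called lower.

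**Figure D4:**
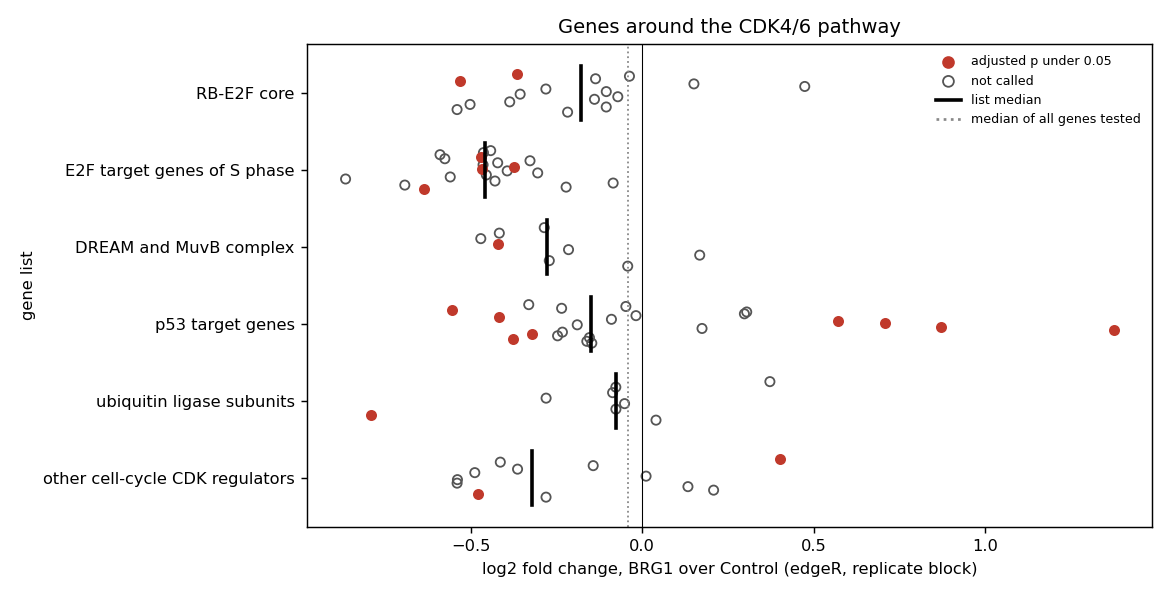
Log2 fold change, BRG1 over Control, of each gene in the 6 lists (edgeR with the replicate block), with called genes filled in red, list medians as black bars and the median of all genes tested as a dotted line. All 20 E2F target genes lie to the left of 0 in this fit, with a median of -0.46, and the p53 targets split into 4 called on each side.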

How the data were processed

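Poly(A) RNA libraries, which do not keep strand, were made from 500 ng of RNA and sequenced as pairs of 78 bases. Per the submitters' processing notes and the study's methods, the authors aligned reads with STAR 2.5.3a to hg38, quantified transcripts with Salmon 0.8.2 and summed them to gene symbols with tximport. What they deposited is 1 table of estimated counts per gene, on the scale that tximport derives from abundances corrected for length and library size. Salmon divides ambiguous reads between transcripts by likelihood, so values need not be whole.

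Estimated counts were rounded. The main test was edgeR's quasi-likelihood F-test (edgeR 4.0.16 in R 4.3.3) on 14246 genes passing filterByExpr, with TMM factors, the replicate number as a block and Benjamini-Hochberg adjustment over all genes tested; calls had an adjusted p under 0.05. The study used DESeq2, which in an earlier simulation on these data gave more false calls than its threshold states, so edgeR was the main test. DESeq2 (1.42.0), limma-voom (3.58.1), no block, RLE factors, no filter, a threshold of 0.01 and leaving out replicates were alternatives. The fits were tested on simulated data with few changed genes. There the blocked edgeR fit gave unchanged genes small p-values about as often as stated at 0.05 and 0.01, but too many very small ones, so that on average more of its calls were false than the threshold states. The unblocked fit made almost no false calls and missed more of the changed genes. The simulated levels were built from means per replicate number, so an effect of the number was present by construction. The comparison of blocked and unblocked fits therefore cannot decide whether the numbers pair the real libraries. Pairing was checked after group means were removed. Libraries of the same number then correlated across genes at 0.48, 0.49 and 0.56, and those of different numbers at -0.49 to 0.07. Removing a mean of 3 libraries pushes the latter values down once the former are positive, so the contrast is in part built in. The numbers come from the labels, and the correlations are over 14246 genes.

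Totals of 29699741 to 63613710 estimated counts set the counting error, and 3 counts or fewer was treated as the floor. Members and lists were chosen with earlier results of these data known, so the lists give no independent support. All members, SMARCA4, up to 4 called genes per list with the largest change, and the 3 genes nearest in profile to each of the 2 called members with the largest change (mean of at least 1 CPM) were named; a few items under this rule and in the marker lists are not reported here. Positions and exon overlaps are from GENCODE release 44; start regions are from RefSeq.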

Additional observations from a re-analysis of the deposited data

How the results depend on the processing

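The higher direction of CCND1, CCND2, CDKN2B and CDKN2A, and the lower direction of CCND3, CDK4 and CDK6, were kept in every alternative run, whereas CDKN1A, CDKN1B and CDKN1C changed sign in some. The fits with the block pair the libraries by the replicate numbers of the labels. Without the replicate block edgeR gave log2 fold changes of 1.37 for CCND2, no longer called, and -0.017 for CDKN1A, and 146 genes were called lower in place of 809. The counts of genes called lower were then 0 in each of the 6 pathway lists, and WEE1 was lost, so that 0 of the other kinase regulators were called higher. Of the member calls, the missing block changed only that of CCND2 in edgeR. DESeq2 without the block gave the same counts of 0 for these lists and 294 genes lower. A threshold of 0.01 also gave 0 for them, and 155 genes lower.

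With the block, DESeq2 called 2 members lower, CCND3 at -0.33 and CDK4 at -0.58, limma-voom called 1, CDK4 at -0.60, and edgeR with no low-count filter called 2, CCND3 at -0.35 and CDK4 at -0.60. In these 3 settings 12, 7 and 8 E2F targets and 4, 2 and 3 other kinase regulators were called lower. RLE factors moved no member across the threshold and called 5 E2F targets lower.

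Replicate pairs were left out of the blocked fit, and single libraries of the unblocked fit, where the pairing is lost as well. The log2 fold changes then ranged from 2.24 to 3.24 for CCND1, from 1.13 to 1.67 for CCND2, from 1.63 to 2.61 for CDKN2B, from -0.83 to -0.22 for CDK4, from -0.28 to 0.22 for CDKN1A, from -0.45 to 0.036 for CDKN1B and from -0.22 to 0.28 for CDKN1C. Genes called higher ranged from 1028 to 2391 and genes called lower from 39 to 1048, members called higher from 0 to 3 and members called lower from 0 to 1. Called lower were 0 to 6 genes of the RB and E2F core, 0 to 17 E2F targets, 0 to 5 DREAM and MuvB genes, 0 to 4 p53 targets, 0 to 1 ubiquitin ligase subunits and 0 to 6 other kinase regulators. Called higher were 2 to 4 p53 targets, 0 to 1 ubiquitin ligase subunits and 0 to 1 other kinase regulators. The highest counts of E2F targets, RB and E2F core genes and other regulators called lower came without replicate 3, whose BRG1 library is the shallowest. The cause of these shifts was not tested. Depth limits CDKN1C and CCND2, which held 21 to 311 counts per library.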
